A study of Mus musculus with 16 samples.

Results

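Liver breaks down amino acids with a set of enzymes of which 9 are described here: the glutaminase Gls2, the serine dehydratase Sds, the histidine ammonia-lyase Hal, the aminotransferases Tat, Gpt and Got1, the dioxygenases Tdo2 and Hpd, and the proline dehydrogenase Prodh. They were picked by name as enzymes of amino acid catabolism, with earlier results of these data known. They are 9 of the 41079 genes in the count table. Shares over all genes given beside them are therefore a description and not an independent test. All 9 were among the 16742 genes that passed the filter on low counts. No exon of a second gene on the same strand overlaps theirs.

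The study compared livers that lost the glucagon receptor in hepatocytes (LKO) with control livers (CRE-), by RNA sequencing, in male and female mice. There were 4 mice in each of 4 groups, male CRE-, male LKO, female CRE- and female LKO, 16 livers in all. Every mouse, controls included, carried the floxed Gcgr allele, with LoxP sites around exons 6 to 12, on a C57BL/6J background. LKO mice also had the Albumin-Cre transgene, which is active in hepatocytes from development onwards, and CRE- mice did not have it. All mice were 20 to 22 months old and ate NIH-31 chow ad libitum, with no fast stated for these livers, while the time of day at dissection is not given in the sources used here.

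As background, hepatocytes strip nitrogen from amino acids, pass it to the urea cycle as ammonia or aspartate, and use the carbon skeletons for glucose or energy. Glucagon, acting through its receptor and cyclic AMP, is known to raise amino acid uptake and the transcription of several of these enzymes during fasting or on a protein-rich diet. Gls2, Sds and Hal release ammonia directly, Tat, Gpt and Got1 move amino groups between carbon skeletons, and Hpd, Tdo2 and Prodh oxidize the skeletons or rings.

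Libraries held 33268424 to 56488920 counted reads, with group medians of 44288170 in male CRE-, 38475729.5 in male LKO, 46840916 in female CRE- and 37348750.5 in female LKO. Gcgr, the targeted gene, was still counted in every LKO liver, in CPM (counts scaled to normalized library size): 190.4, 193, 127 and 189.6 in male CRE- mice 1 to 4, 117, 136, 129.9 and 160.3 in male LKO mice, 162, 208, 201 and 180.0 in female CRE- mice, 48.8, 132, 119 and 93.6 in female LKO mice. The counts are summed over all exons, also those outside the floxed stretch, so this count by itself does not show the deletion. The paper measured Gcgr transcripts in several tissues of both sexes and reports a reduction in liver alone. In the counts used here, each female LKO mouse was below each female control, while the male groups overlapped through control mouse 3. Gcgr fell in females: its log2 fold change was -0.93 (standard error 0.25, adjusted p = 0.0443), lower in 4 of 4 mice, and it was -0.37 (standard error 0.24, adjusted p = 0.671) in males, with -0.57 (standard error 0.35, adjusted p = 0.412) for the difference between the sexes, which was -0.31 without female LKO mouse 1. The female call was lost without any 1 of the 4 female controls or of female LKO mice 1, 3 and 4, with adjusted p from 0.0519 to 0.136. It was also lost with upper-quartile normalization (adjusted p = 0.0707), with no filter (0.0545), with 10 counts in every library (0.0506), with each sex fitted alone (0.132) and without the 4 libraries that held pancreatic or muscle transcripts (0.246). Of 19 alternatives 7 called Gcgr in females, DESeq2 with the lowest adjusted p, 0.00807. Averaged over the sexes its value was -0.65 (adjusted p = 0.0555), and 8 of 26 alternatives called it, DESeq2 at an adjusted p of 0.0105.

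Hepatocyte markers were high in all 16 livers. Of 10 defining markers 9 were summed, transferrin being listed as Tf but named Trf in the count table, none was at 0, and Alb was the most abundant in each liver. Their summed CPM was 77482, 104541, 118293 and 106200.1 in male CRE- mice 1 to 4, 72193, 85229, 102547 and 86851 in male LKO, 131409.8, 122541, 126919 and 146059 in female CRE- and 66174, 102294, 102591 and 83369.9 in female LKO. Each female LKO sum was below each female control sum, also with Trf added, but Alb was most of it: the sums without Alb were 39005, 32374, 32573 and 40555 in female CRE- and 24487, 30332, 33145 and 30086 in female LKO mice, and these ranges overlapped. Of the 9 markers edgeR called 0 in either sex, 0 and 2 had an unadjusted p under 0.05 in males and females (both lower, against 9.53% and 21.4% of all genes), DESeq2 called 0 and 2 (against 2.03% and 11.1%), and the median log2 fold change was 0.00 in males and -0.27 in females. Trf had 14262, 16406, 25959.9 and 17481 CPM in male CRE- mice 1 to 4, 12445, 10983, 12987 and 10379 in male LKO, 24197, 19016, 19843 and 28666 in female CRE- and 27643, 23200.3, 14934 and 49969 in female LKO, with adjusted p = 0.519 in males and 0.584 in females. In bulk liver, fewer cells of a type and less RNA per cell cannot be told apart, and the part of the lower female sum in the results below was not tested.

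Some livers stood apart from their group. Male CRE- mouse 3 had the lowest control value in 8 of the 9 genes, Hal being the exception, and its summed pericentral markers were 3524 CPM against 9060 to 14385 in the other male controls. The lowest of these sums in female LKO was 4007, against 8896 to 12205 in female controls. Of single pericentral markers, Cyp2e1 was 1378 CPM in female LKO mouse 1, against 4107 to 6316 in female controls. Glul was 5724 CPM in female LKO mouse 4, against 293 to 1841 in the other livers. Female LKO mouse 2 was inside or above the control range for Gls2, Sds, Tdo2 and Got1. Pancreatic acinar markers summed to 472 CPM in female CRE- mouse 2 and 124 in male CRE- mouse 2, and skeletal muscle markers to 116 and 66.4 in male LKO mice 3 and 4. Of the 5 skeletal muscle markers edgeR called 0 in either sex. In males 5 had an unadjusted p under 0.05, all higher, against 9.53% of all genes, and DESeq2 called 4, against 2.03%. In females both counts were 0. Adipocyte markers summed to 10.5, 30.1, 18.7 and 32.5 in male CRE- mice 1 to 4, 9.004, 109.5, 19.8 and 108 in male LKO, 16.4, 13.9, 11.01 and 10.9 in female CRE- and 7.30, 33.6, 8.32 and 109 in female LKO. Cfd was most of the sum in male LKO mice 2 and 4 and Fabp4 in female LKO mouse 4, and of the defining genes Adipoq, Plin1 and Lep were at 0 in male LKO mouse 2 and female LKO mouse 4, while none was at 0 in male LKO mouse 4. Of the 5 adipocyte markers edgeR and DESeq2 called 0 in either sex. In males 2 had an unadjusted p under 0.05, both higher, against 9.53% of all genes. In females 2 did, 1 of each direction, against 21.4%. Female LKO mouse 4 had 2301 CPM of liver tumour and oncofetal markers, 1775 of it H19. Their part in the results below was not tested beyond the values given without them.

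None of the 9 genes passed the test in either sex, although 8 of 9 had negative fold changes in each. In males edgeR called 0 of 9 at an adjusted p under 0.05, where it called 0.454% of all genes tested; 3 had an unadjusted p under 0.05 (Gls2, Sds and Tat) against 9.53% of all genes, and DESeq2 called 1, Sds, against 2.03%. In females edgeR called 0 of 9 against 4.24% of all genes; 5 had an unadjusted p under 0.05 (Gls2, Hal, Gpt, Hpd and Prodh) against 21.4%, and DESeq2 called 2, Hal and Hpd, against 11.1%. At those edgeR shares fewer than 1 call among 9 genes would match the background, so the counts of 0 do not set these genes apart. The median log2 fold change of the 9 was -0.70 in males, beside -0.01 over all genes tested, and -0.79 in females, beside 0.04. Every LKO mouse was below every control for 2 of 9 in males (Gls2 and Sds), where 2.92% of all genes had this pattern, and for 3 of 9 in females (Hal, Gpt and Hpd), where 6.42% did. The male count was 5 without CRE- mouse 3 (also Tat, Gpt and Prodh, with 4.13% of all genes) or LKO mouse 3 (also Tat, Hal and Got1, with 4.19%), and the female count was 5 without LKO mouse 2 (also Gls2 and Sds, with 9.71%) or mouse 4 (also Tat and Prodh, with 8.82%). Without female LKO mouse 2, edgeR called 3 of 9 in females, Gls2, Hal and Hpd, with 1310 of all 17105 genes. Without any other single library it called 0 of the 9 in either sex. Limma-voom with sample quality weights called 1 of 9 in males, Sds, with 148 of all 16742 genes, and 6 in females, Gls2, Tat, Hal, Gpt, Hpd and Prodh, with 1976. Mice of equal number in different groups were slightly more alike than mice of different number: the mean r of their deviations from group means was 0.0764 over 24 pairs against -0.0242 over 72, and 221 of the 13824 ways to number mice within groups gave a mean as high for equal numbers, a test chosen after seeing the data. These numbers are those of the sample titles. Those in the deposited library names differ for male CRE- mouse 4 (5) and female LKO mice 3 and 4 (4 and 5), and by them the mean was 0.0956 over 19 pairs, with 1592 of 331776 numberings as high. What either set stands for is not given. With the title number as a block edgeR called 0 of 9 in males, with 63 of all 16742 genes, and 2 of 9 in females, Hal (adjusted p = 0.0425) and Hpd (adjusted p = 0.0296), with 1244. With the library number as a block, an alternative also chosen after seeing the data, it called 0 in males, with 60 genes, and 3 in females, Gpt (adjusted p = 0.0416), Hpd (adjusted p = 0.0342) and Prodh (adjusted p = 0.0397), with 1074.

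**Figure D1:**
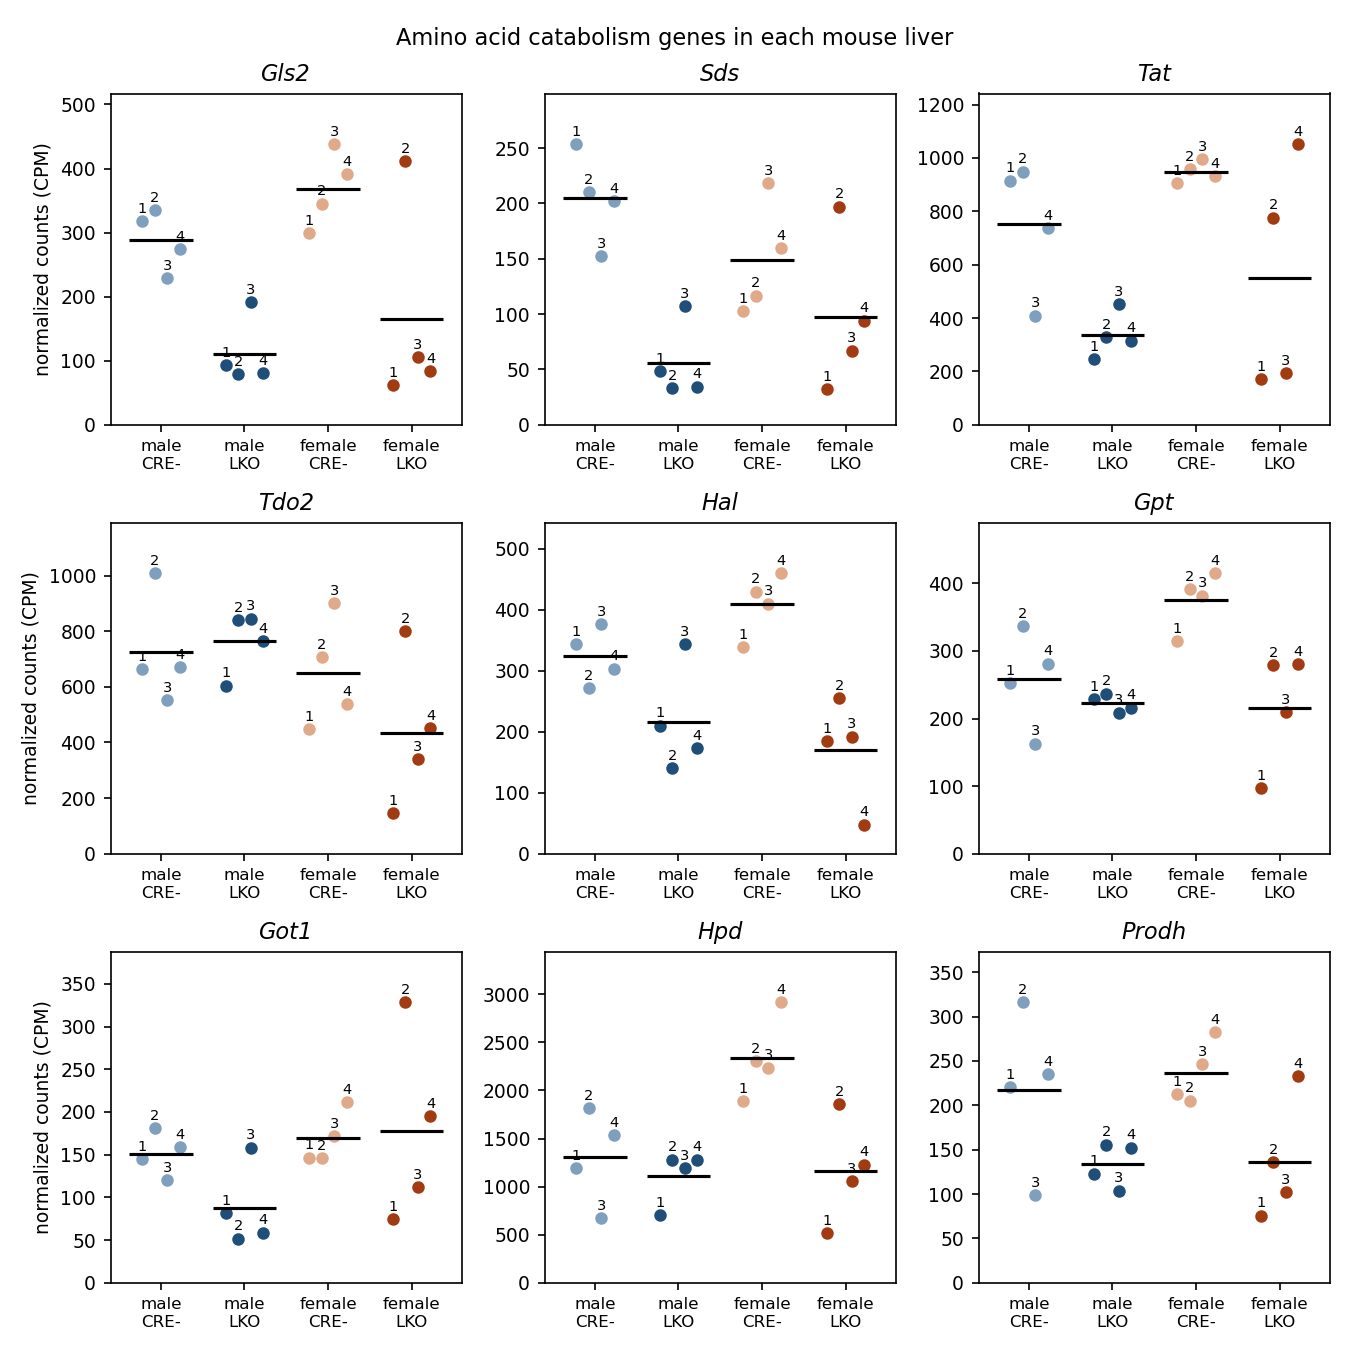
Normalized counts (CPM, linear axis) of the 9 genes in each liver, by group; points are mice with their replicate number and bars are group means. Gls2 and Sds are lower in each male LKO mouse than in any male control, while female LKO mouse 2 stands at control level for both.

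Among the ammonia-releasing enzymes, Gls2, which turns glutamine into glutamate, had these values in males: 318, 335, 229 and 274 in male CRE- mice 1 to 4, 93.4, 79.5, 191 and 80.3 in male LKO mice. In females they were: 299, 345, 438 and 391 in female CRE- mice, 61.8, 411, 105 and 83.5 in female LKO mice. Male LKO mice 1, 2 and 4 lay well below the controls and mouse 3 between them, and in females 3 LKO mice lay far below the controls and mouse 2 inside their range. Its log2 fold change was -1.38 (standard error 0.47, adjusted p = 0.315) in males, lower in 4 of 4 mice, and -1.15 (standard error 0.47, adjusted p = 0.160) in females, below the lowest control in 3 of 4. Without female LKO mouse 2 the female value was -2.14 (adjusted p = 0.00490), which passed the test, as did the value by limma-voom (adjusted p = 0.0341); over all alternatives the adjusted p ran from 0.00490 to 0.376.

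Sds converts serine to pyruvate and ammonia. Its CPM in males was: 254, 210.4, 152 and 202 in male CRE- mice 1 to 4, 48.4, 33.3, 107 and 34.4 in male LKO mice. The groups did not overlap, and LKO mouse 3 was again the highest of its group. In females it was: 102, 117, 218 and 159.5 in female CRE- mice, 31.9, 197, 67.0 and 94.0 in female LKO mice, so the ranges crossed at LKO mouse 2. The log2 fold change was -1.87 (standard error 0.47, adjusted p = 0.109) in males, with a 95% interval of -2.87 to -0.88, and -0.61 (standard error 0.46, adjusted p = 0.480) in females. Without female CRE- mouse 3, LKO mouse 1 or LKO mouse 2 the female value was -0.37, -0.30 and -1.22. The male difference passed the test by DESeq2 (adjusted p = 0.00441), by limma-voom (adjusted p = 0.0206) and by edgeR on males alone (adjusted p = 0.0492), and over all alternatives its adjusted p ran from 0.00441 to 0.439.

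Hal, the first enzyme of histidine breakdown, overlapped between the groups in males and not in females. Male values were: 344, 272, 377 and 304 in male CRE- mice 1 to 4, 210.1, 140.1, 343 and 173 in male LKO mice. LKO mouse 3 stood among the controls and the other 3 below them. Female values were: 339, 430.2, 410.2 and 460.5 in female CRE- mice, 184, 255, 192 and 47.7 in female LKO mice. All 4 female LKO mice were below all 4 controls, mouse 4 by the widest margin. The log2 fold change was -0.58 (standard error 0.37, adjusted p = 0.654) in males and -1.27 (standard error 0.37, adjusted p = 0.0614) in females, and DESeq2 gave the female difference an adjusted p of 0.0124 and limma-voom 0.0220. Without female LKO mouse 2 edgeR called it in females too, at -1.54, and over all alternatives the female adjusted p ran from 0.0124 to 0.218. The male value was -0.89 without male LKO mouse 3.

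Of the aminotransferases, Tat takes the amino group from tyrosine. Its values in males were: 914, 949, 408 and 737 in male CRE- mice 1 to 4, 247, 328, 452 and 315 in male LKO mice. Control mouse 3 lay within the LKO range, and the other 3 controls were above all LKO mice. Its values in females were: 905, 957, 994 and 932 in female CRE- mice, 171, 776, 194 and 1052 in female LKO mice. The female controls lay close together, and the LKO mice split into 2 low (mice 1 and 3), 1 somewhat below the controls (mouse 2) and 1 above them (mouse 4). LKO against CRE- gave a log2 fold change of -1.16 (standard error 0.46, adjusted p = 0.400) in males and -0.79 (standard error 0.46, adjusted p = 0.344) in females. The female value was -0.47, -0.50 and -1.32 without LKO mouse 1, 3 or 4, and by limma-voom it was -1.36 and passed the test (adjusted p = 0.0291).

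Gpt links alanine to pyruvate. In males it was: 252, 336, 163 and 281 in male CRE- mice 1 to 4, 229, 237, 209 and 216 in male LKO mice. In females it was: 314, 391, 382 and 415 in female CRE- mice, 97.0, 279, 209 and 280.1 in female LKO mice. The male LKO mice clustered inside the control range, and each female LKO mouse was below each female control. Its log2 fold change was -0.21 (standard error 0.28, adjusted p = 0.837) in males and -0.80 (standard error 0.28, adjusted p = 0.103) in females, lower in 4 of 4 female mice. The female value passed the test by limma-voom (adjusted p = 0.0164) and with the library number as a block (adjusted p = 0.0416). The male value was -0.06 without control mouse 2 and -0.39 without control mouse 3.

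Got1, the cytosolic aspartate aminotransferase, was measured in males as: 145, 181, 120.0 and 159 in male CRE- mice 1 to 4, 81.7, 51.6, 158 and 58.5 in male LKO mice. In females it was measured as: 146, 146, 172 and 211 in female CRE- mice, 74.7, 329, 112 and 195 in female LKO mice. Male LKO mouse 3 was at control level and the other 3 below, and among females LKO mice 1 and 3 were below the controls, mouse 4 inside and mouse 2 above their range. The log2 fold change was -0.79 (standard error 0.39, adjusted p = 0.556) in males and 0.07 (standard error 0.39, adjusted p = 0.945) in females. The male value was -1.24 without male LKO mouse 3. Without 1 library the female value ran from -0.41 (without LKO mouse 2) to 0.34 (without LKO mouse 1).

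Of the oxidizing enzymes, Hpd acts on the product of Tat in the tyrosine route. Male values in CPM were: 1191, 1819, 669.7 and 1536 in male CRE- mice 1 to 4, 706, 1279, 1189 and 1279 in male LKO mice. Female values in CPM were: 1891, 2304, 2238 and 2919.6 in female CRE- mice, 516, 1854, 1055 and 1228 in female LKO mice. In males the groups overlapped, with control mouse 3 the lowest of all 8, while in females all LKO mice were below all controls, mouse 2 by a small margin. Hpd had a log2 fold change of -0.23 (standard error 0.35, adjusted p = 0.866) in males and -1.01 (standard error 0.35, adjusted p = 0.104) in females, with a DESeq2 adjusted p of 0.0432 in females. Without female LKO mouse 2 edgeR called the female difference, at -1.33, and over all alternatives its adjusted p ran from 0.0296 to 0.318. The male value was -0.02, -0.46 and -0.14 without control mouse 2, 3 or 4, and -0.08 without LKO mouse 1.

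Tdo2 opens the ring of tryptophan. Its male values were: 664, 1009, 551 and 669.8 in male CRE- mice 1 to 4, 604, 841, 845 and 765 in male LKO mice. Its female values were: 448, 706, 901 and 539 in female CRE- mice, 147, 799, 339 and 452 in female LKO mice. The male groups covered much the same range, and among females LKO mice 1 and 3 were below the controls and mice 2 and 4 inside their range. Tdo2 had a log2 fold change of 0.08 (standard error 0.37, adjusted p = 0.965) in males and -0.58 (standard error 0.37, adjusted p = 0.403) in females. Without 1 library the male value ran from -0.05 (without control mouse 3) to 0.28 (without control mouse 2), and the female value was -0.38, -0.27 and -1.05 without control mouse 3, LKO mouse 1 or LKO mouse 2.

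Prodh, the mitochondrial enzyme that starts proline oxidation, gave in males: 220.2, 316, 99.0 and 235 in male CRE- mice 1 to 4, 123, 156, 104 and 152 in male LKO mice. In females it gave: 213, 205, 247 and 282 in female CRE- mice, 75.5, 136, 102 and 233 in female LKO mice. The low male control mouse 3 made the male groups overlap, and LKO mouse 4 did so in females. The log2 fold change was -0.70 (standard error 0.33, adjusted p = 0.525) in males and -0.79 (standard error 0.33, adjusted p = 0.177) in females, with 4 of 4 LKO mice below the control mean in each sex. The male value was -0.47 without control mouse 2, and the female value -1.18 without LKO mouse 4. The female value passed the test by limma-voom (adjusted p = 0.0259) and with the library number as a block (adjusted p = 0.0397).

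No sex difference in the LKO effect passed the test for any of the 9. For the difference edgeR called 0 of 9 and 0% of all genes; 0 of 9 had an unadjusted p under 0.05, while 2672 of all 16742 genes did, and DESeq2 called 0 of 9 against 2.22%. The differences, female minus male, ran from -0.78 for Hpd to 1.26 for Sds, whose 95% interval was -0.11 to 2.63 (adjusted p = 0.341). The Sds difference was 0.66 without female LKO mouse 2, and the Hpd difference -0.51 without female LKO mouse 1. The direction of the Gls2 difference, 0.23, turned to -0.76 without female LKO mouse 2.

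Averaged over the sexes, the LKO effect was negative for all 9 and came close to the threshold for Gls2 and Sds. edgeR called 0 of 9 against 2.86% of all genes; 7 had an unadjusted p under 0.05, all but Tdo2 and Got1, against 15.8%, and DESeq2 called 5 (Gls2, Sds, Tat, Hal and Prodh) against 6.20%. The averaged log2 fold change was -1.27 (standard error 0.33, adjusted p = 0.0505) for Gls2, -1.24 (standard error 0.33, adjusted p = 0.0521) for Sds and -0.93 (standard error 0.26, adjusted p = 0.0694) for Hal. edgeR called 3 of 9 without female LKO mouse 2 or male LKO mouse 3 (Gls2, Sds and Hal both times), 3 without female LKO mouse 4 (Tat, Hal and Prodh) and 1 without male CRE- mouse 3 (Prodh). In the same order, the calls over all genes were 598 of 17105, 376 of 17109, 471 of 17081 and 462 of 17065. Limma-voom called 6, Gls2, Sds, Tat, Hal, Gpt and Prodh, with 857 of all 16742 genes. With the title number as a block edgeR called 3, Gls2 (adjusted p = 0.0303), Sds (adjusted p = 0.0486) and Prodh (adjusted p = 0.0455), with 629 of all 16742 genes, and with the library number 3, Gls2 (adjusted p = 0.0336), Hal (adjusted p = 0.0432) and Prodh (adjusted p = 0.0339), with 653. For Gls2 the averaged value without female LKO mouse 2 was -1.76 (adjusted p = 3.0e-04), the lowest adjusted p over all alternatives, where the highest was 0.241.

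**Figure D2:**
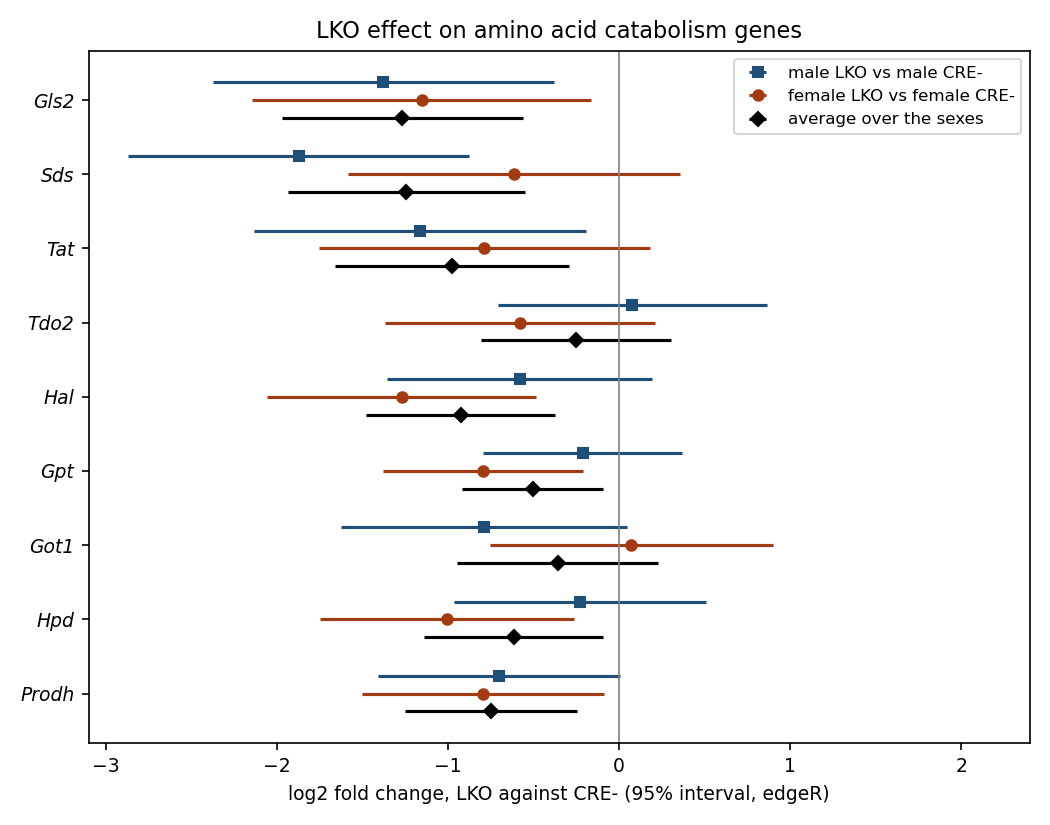
Log2 fold change of LKO against CRE- for each gene in males (squares), females (circles) and averaged over the sexes (diamonds), with 95% intervals from edgeR on 4 mice per group. Most points lie left of 0, Tdo2 in males and Got1 in females lie at or just right of it, and no value passed the adjusted test.

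Between control females and control males, edgeR called 0 of 9 against 0.920% of all genes. An unadjusted p under 0.05 was found for 1, Hpd, against 12.7% of all genes, and DESeq2 called 0 of 9 against 3.11%. Hpd had the highest value, 0.84 (standard error 0.35, adjusted p = 0.330), with each female control above each male control, and Sds the lowest, -0.46 (standard error 0.46, adjusted p = 0.693), which was -0.70 without female CRE- mouse 3.

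Levels can be compared between genes only per length, here the summed exon length of each gene, which is not the length of a single transcript. In male controls the mean CPM per kb was 931 for Hpd, 443 for Tdo2, 234 for Tat, 144 for Gpt, 139 for Sds, 117 for Hal, 116 for Gls2, 84.5 for Prodh and 40.2 for Got1, and of these neighbours only Tdo2 and Tat had ranges that did not overlap. In female controls it was 1670.1 for Hpd, 397 for Tdo2, 294 for Tat, 210.1 for Gpt, 148 for Gls2, 148 for Hal, 102 for Sds, 91.9 for Prodh and 45.0 for Got1, and 3 neighbouring pairs were apart, Hpd and Tdo2, Tat and Gpt, and Prodh and Got1. Male LKO livers had the order Hpd, Tdo2, Gpt, Tat, Hal, Prodh, Gls2, Sds and Got1, with only Tdo2 and Gpt apart, so Gls2 and Sds stood at places 7 and 8 of 9. Female LKO livers had the order Hpd, Tdo2, Tat, Gpt, Gls2, Sds, Hal, Prodh and Got1, and all neighbouring ranges overlapped.

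The LKO mice differed among themselves in how many of the 9 genes lay below the lowest control of their sex. Male LKO mice 1, 2 and 4 had 5 of 9 each and mouse 3 had 2, where 17.1%, 13.5%, 14.6% and 14.2% of all genes tested lay that low in mice 1, 2, 4 and 3. Female LKO mice 1 and 3 had 9 of 9, and mice 2 and 4 had 5 each, where the shares of all genes were 33.4%, 24.1%, 22.6% and 29.0% in mice 1, 3, 2 and 4. Male mouse 3 was low for Sds and Gls2 alone, and female mouse 2 for Tat, Hal, Gpt, Hpd and Prodh. Female mouse 4 was low for Gls2, Sds, Hal, Gpt and Hpd. The male counts depended on male CRE- mouse 3: without it male LKO mice 1, 2, 4 and 3 had 9, 7, 7 and 6 of 9, where 23.0%, 18.7%, 18.8% and 20.9% of all genes lay that low.

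Across the 16 libraries the 2 most alike of the 9 were Gpt and Hpd, with Pearson's r = 0.92 on log2 CPM, followed by Gls2 and Sds with r = 0.90, and the least alike were Hal and Prodh with r = 0.13. These libraries span genotype and sex, so r describes the whole set of mice. The 6 genes outside the 9 most like their mean profile were Ass1 (r = 0.976), Hgd (r = 0.947), Aass (r = 0.938), Asl (r = 0.937), Gnmt (r = 0.932) and Gm5424 (r = 0.931), each over 16 libraries. Mean CPM of Ass1 was 2394 in male CRE-, 1230.3 in male LKO, 3529 in female CRE- and 1699 in female LKO.

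Of a wider list of 44 genes of amino acid breakdown, 43 were tested, Tdh being too low, and 13 fell in LKO females. This list, too, was chosen with earlier results of these data known. In females edgeR called 13 of 43, all lower, where 2.15% of all genes were called lower; 36 of 43 had an unadjusted p under 0.05, 33 of them lower, against 21.4% of all genes in both directions, DESeq2 called 23 against 11.1%, and the median log2 fold change was -0.73. In males edgeR called 0 of 43 against 0.454% of all genes, 7 had an unadjusted p under 0.05, 6 of them lower, against 9.53%, DESeq2 called 1 (Csad) against 2.03%, and the median was -0.19. By route the female calls were 5 of 9 in the serine, glycine and threonine route, 3 of 10 for tryptophan, 2 of 6 for phenylalanine and tyrosine, 1 of 3 for histidine, 1 of 4 for proline, 1 of 3 for lysine, 0 of 6 for glutamine, glutamate, alanine and aspartate, and 0 of 2 for cysteine. The count of 13 stood beside 710 of all 16742 genes called. It was 3 without female CRE- mouse 2, 3 or 4, with 87 of 17089, 122 of 17108 and 110 of 17091 genes called, 4 without female LKO mouse 1 (237 of 17029), 22 without mouse 2 (1310 of 17105), 7 without mouse 3 (536 of 17011) and 6 without mouse 4 (404 of 17081). It was 0 without the 4 libraries that held pancreatic or muscle transcripts, where 6 of 17618 genes were called, 6 without the 2 libraries of lowest weight, female LKO mouse 1 and male CRE- mouse 3 (361 of 16945), 2 with each sex fitted alone (119 of 15744), 19 with the title number as a block (1244 of 16742) and 22 with the library number (1074). Leaving out those sets of libraries and the library number block were chosen after seeing the data.

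Ido2, a second enzyme that opens the tryptophan ring, had these CPM in females: 81.8, 104, 83.6 and 107 in female CRE- mice, 25.6, 45.7, 41.5 and 37.5 in female LKO mice. Its male values were: 91.7, 103, 83.3 and 86.7 in male CRE- mice 1 to 4, 40.9, 64.7, 68.8 and 68.0 in male LKO mice. In each sex all LKO mice were below all controls. Ido2 fell in females, its log2 fold change being -1.32 (standard error 0.20, adjusted p = 0.00519), lower in 4 of 4 mice, and it was -0.59 (standard error 0.20, adjusted p = 0.303) in males. Afmid, the next step of the tryptophan route, and Shmt1, which interconverts serine and glycine, also fell in females, at log2 fold changes of -1.05 (standard error 0.17, adjusted p = 0.00622) and -1.33 (standard error 0.25, adjusted p = 0.0136). These 3 genes passed the test in females without each of the 8 female libraries in turn, while each of the other 10 lost its call without 3 to 7 of them.

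Those other 10 female calls spread over the routes. Qdpr, which regenerates the cofactor of phenylalanine hydroxylase, had log2 fold changes of -1.38 (adjusted p = 0.0227) in females and -0.55 (adjusted p = 0.581) in males, and Gstz1, later in tyrosine breakdown, -0.98 (adjusted p = 0.0497) and -0.18 (adjusted p = 0.859). Haao of the tryptophan route had -1.43 (adjusted p = 0.0305) in females and Ftcd of the histidine route -1.17 (adjusted p = 0.0273). For serine, glycine and threonine the calls were Gldc -1.34 (adjusted p = 0.0273), Agxt -1.32 (adjusted p = 0.0420), Gcat -0.997 (adjusted p = 0.0305) and Srr -0.84 (adjusted p = 0.0321). Aldh4a1, which completes proline oxidation after Prodh, had -0.88 (adjusted p = 0.0298), and Gcdh of the lysine route -1.003 (adjusted p = 0.0444). None of the 13 differed between the sexes past the threshold, with adjusted p for the difference from 0.200 (Gcat) to 0.713 (Agxt).

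Averaged over the sexes, 12 of the 43 were called, 11 of them lower, against 1.65% of all genes called lower. Csad, which acts in taurine synthesis from cysteine, was the one that rose: 342, 379, 375 and 351 in male CRE- mice 1 to 4, 1102, 819, 614 and 705 in male LKO mice, 141, 443, 319.9 and 159.7 in female CRE- mice, 418, 577, 509 and 467 in female LKO mice. Each male LKO mouse was above each male control, and the female ranges crossed. Its averaged log2 fold change was 1.03 (standard error 0.21, adjusted p = 0.0152), with 1.16 (standard error 0.30, adjusted p = 0.124) in males and 0.89 (standard error 0.30, adjusted p = 0.0960) in females. Csad, Ido2, Afmid, Shmt1, Qdpr, Ftcd, Agxt and Uroc1 were called without each of the 16 libraries in turn, whereas Aldh4a1, Asrgl1, Haao and Gldc lost their calls without 4, 7, 12 and 13 of them. Without the 4 libraries that held pancreatic or muscle transcripts the count was 2, where the calls over all genes fell from 478 of 16742 to 54 of 17618, and with the title or the library number as a block it was 16 and 14, with 629 and 653 of 16742.

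Of the paralogs that catalyse similar reactions, Sdsl, Gpt2, Got2 and Prodh2 did not pass the edgeR test in either sex, while DESeq2 called Got2 and Prodh2 in females. Without female LKO mouse 2 edgeR called Sdsl, Got2 and Prodh2 in females, with 1310 of all 17105 genes. It called Sdsl in the averaged effect without female LKO mouse 2 (598 of 17105 genes) or male LKO mouse 3 (376 of 17109). Sdsl had log2 fold changes of -0.67 and -0.57, and the mitochondrial aminotransferases Gpt2 -0.48 and -0.56 and Got2 -0.04 and -0.61, in males and females. Prodh2, which oxidizes hydroxyproline, had 0.13 in males and -0.95 (standard error 0.31, adjusted p = 0.0881) in females.

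Of 9 known glucagon targets tested outside the list, 1 was called in each sex, against 0.454% of all genes in males and 4.24% in females. In males 5 of 9 had an unadjusted p under 0.05, all lower, against 9.53% of all genes, and the median log2 fold change was -0.92, while in females 2 of 9 did, both lower, against 21.4%, and the median was -0.13. The called gene was the amino acid transporter Slc38a4: 1074, 1183, 1218 and 919 in male CRE- mice 1 to 4, 555, 548, 536 and 501 in male LKO mice, 879.8, 962, 1188 and 889 in female CRE- mice, 465, 828, 439 and 457 in female LKO mice. Each LKO mouse was below each control of its sex, female LKO mouse 2 by the smallest margin. Slc38a4 fell in both, its log2 fold change being -1.04 (standard error 0.21, adjusted p = 0.0414) in males, -0.84 (standard error 0.21, adjusted p = 0.0367) in females and -0.94 (standard error 0.15, adjusted p = 0.00223) averaged. The averaged call was kept without each of the 16 libraries, but not without the 4 that held pancreatic or muscle transcripts (adjusted p = 0.111), while the male call was lost without any 1 of 8 (adjusted p 0.0504 to 0.114) and the female call without any 1 of 8 except LKO mouse 2 (adjusted p 0.0504 to 0.115).

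Some markers of other cells were higher in female LKO livers beside these genes. Of 10 macrophage markers 2, Trem2 and Adgre1, were called higher in females, against 2.09% of all genes (9 by DESeq2, against 6.52%), where 10 of 10 had an unadjusted p under 0.05, all higher, against 21.4% of all genes in both directions, and 0 in males (0 at an unadjusted p under 0.05, 0 by DESeq2), Cd5l or Clec4f being the most abundant and none at 0. Their summed CPM was 799, 435, 256 and 1171 in male CRE- mice 1 to 4, 1057, 586, 665 and 591 in male LKO, 684, 522, 570.5 and 972 in female CRE- and 3722, 886, 1990.3 and 1105 in female LKO. Female LKO mouse 1, which had the lowest value of the 16 livers for 7 of the 9 enzymes, had the highest macrophage sum. Both calls were lost without female CRE- mouse 2, 3 or 4 or female LKO mouse 1, and that of Adgre1 also without female CRE- mouse 1 or LKO mouse 3, with adjusted p up to 0.0868 for Trem2 and 0.189 for Adgre1, whose log2 fold change went from 2.15 to 1.21 without female LKO mouse 1. The adjusted p of the sex difference was 0.241 for Trem2 and 0.218 for Adgre1. Averaged over the sexes Trem2 alone was called (adjusted p = 0.0397), and that call was lost without any 1 of 10 libraries: male CRE- mice 1, 2 and 3, male LKO mouse 1, female CRE- mice 2, 3 and 4 and female LKO mice 1, 3 and 4 (adjusted p up to 0.0896). These names, and those of other markers here, were chosen after their values were seen, and the part of macrophages in the lower enzyme counts was not tested.

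Endothelial markers summed to 240.3, 367, 327 and 291 CPM in male CRE- mice 1 to 4, 348, 343, 376 and 359 in male LKO, 287, 396, 369 and 352 in female CRE- and 566, 359.7, 326 and 376 in female LKO, with Clec4g, Ptprb, Stab1, Stab2 or Cdh5 the most abundant and none at 0. Of 8 tested, Cdh5 was called higher in females, against 2.09% of all genes (adjusted p = 0.0249, lost without female CRE- mouse 2, 3 or 4 or female LKO mouse 1, up to 0.0745), with an adjusted p of 0.271 for the sex difference. In females 3 of 8 had an unadjusted p under 0.05, all higher, against 21.4%, and DESeq2 called 2, against 11.1%, while in males all 3 counts were 0. Averaged over the sexes Cdh5 was called too (adjusted p = 0.0394), a call kept only without male CRE- mouse 4, male LKO mouse 2 or female LKO mouse 2 among the 16 libraries (adjusted p up to 0.0846). The part of endothelial cells in the results above was not tested.

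Neutrophil markers summed to 91.4, 23.6, 17.99 and 178 CPM in male CRE- mice 1 to 4, 30.4, 18.7, 15.8 and 14.8 in male LKO, 41.1, 23.6, 18.5 and 55.0 in female CRE- and 127, 49.0, 81.5 and 608 in female LKO. S100a9 was the most abundant in most livers, and Ly6g was at 0 in 9 of 16. Of 7 tested, Retnlg and Ngp were called higher in females against 2.09% of all genes (6 by DESeq2, against 6.52%), each call being lost without any 1 female control or LKO mouse 1 or 4, and that of Ngp also without LKO mouse 3 (adjusted p up to 0.115 and 0.155), the log2 fold change of Ngp going from 4.68 to 2.79 without mouse 4; the sex differences had adjusted p = 0.135 and 0.104, while DESeq2 called 6 of 7 for the sex difference, against 2.22% of all genes. In males edgeR called 0 of 7 and DESeq2 1, but all 7 had negative fold changes, with a median of -1.52, and 5 had an unadjusted p under 0.05, against 9.53% of all genes. The liver tumour and oncofetal markers summed to 16.3, 10.8, 29.5 and 24.3 in male CRE-, 50.7, 16.4, 75.8 and 21.6 in male LKO, 31.7, 15.9, 13.02 and 24.5 in female CRE- and 77.2, 206, 111 and 2301 in female LKO, with H19 the most abundant gene in LKO group means and Cd24a in control means. Of these 8, Afp, H19 and Igf2 were called higher in females against 2.09% of all genes (5 by DESeq2, against 6.52%), calls that were lost without female CRE- mouse 2, 3 or 4, and for Afp also without CRE- mouse 1 or LKO mouse 1 or 4 (adjusted p up to 0.133, 0.0773 and 0.0654). Without female LKO mouse 4 their log2 fold changes went from 3.01, 7.59 and 6.81 to 1.92, 4.88 and 3.597. They had an adjusted p of 0.265, 0.388 and 0.196 for the sex difference. Averaged over the sexes H19, at a log2 fold change of 6.04 (adjusted p = 0.00483), and Igf2, at 4.01 (adjusted p = 0.0169), were called higher, against 1.20% of all genes, and both calls were kept without each of the 16 libraries, the value of Igf2 being 2.39 without female LKO mouse 4. The part of these cells in the results above was not tested.

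Several of the 9 enzymes are known to be more abundant in periportal hepatocytes, so zonal markers are given beside them. Of 10 periportal markers 1, Cyp2f2, was called lower in females, against 2.15% of all genes (adjusted p = 0.0149, without each of the 8 libraries up to 0.0481), and 0 in males, with a sex difference of adjusted p = 0.230. In females 7 of 10 had an unadjusted p under 0.05, all lower, against 21.4% of all genes, with a median log2 fold change of -0.66 and 1 called by DESeq2, and in males 4 did, all lower, against 9.53%, with a median of -0.61 and 0 called by DESeq2. Averaged over the sexes Cyp2f2 was called lower, at -1.56 (adjusted p = 0.0140), against 1.65% of all genes, a call kept without each of the 16 libraries. In that average 6 of 10 had an unadjusted p under 0.05, all lower, against 15.8%, and DESeq2 called 5, against 6.20%. None of the 10 was at 0. Of 10 pericentral markers edgeR called 0 in either sex (0 and 1 at an unadjusted p under 0.05 in males and females, 0 by DESeq2 in both). The part of zonation in the enzyme values was not tested.

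RefSeq promoter sequences, 250 bases before the start on build GRCm38.p6, were matched for 6 of the 9 genes, Got1, Hal, Hpd, Prodh, Tat and Tdo2, and there was no entry for Gls2, Sds and Gpt. On both strands, none of the 6 windows held the cyclic AMP response element TGACGTCA (held by 1.55% of all 32851 promoters of this length), its shorter form TGACG (17.8%, and contained in the longer one), the glucocorticoid receptor motif TGTTCT (16.1%) or the C/EBP palindrome TTGCGCAA (0.164%). This says only that these letters are not in these windows. CCAAT and TATAAA were searched as well, a choice made after the sequences were seen: CCAAT was in 4 of 6 windows (Got1 with 5 matches, Tat with 3, Hal and Tdo2 with 1 each) and in 33.8% of all promoters, and TATAAA in 2 of 6 (Hal and Tdo2) and in 12.4%. Tat, at chr8:109990186-109990435 on the plus strand, and Hal, at chr10:93488518-93488767 on the plus strand, are printed because among the 6 they had the lowest male and the lowest female fold change; capitals mark CCAAT and TATAAA or their reverse complements, ATTGG and TTTATA.
Tat: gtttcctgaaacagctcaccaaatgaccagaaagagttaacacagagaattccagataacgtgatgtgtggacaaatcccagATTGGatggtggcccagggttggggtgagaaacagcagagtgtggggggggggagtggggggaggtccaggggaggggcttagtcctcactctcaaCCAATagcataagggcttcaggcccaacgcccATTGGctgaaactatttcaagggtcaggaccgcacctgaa
Hal: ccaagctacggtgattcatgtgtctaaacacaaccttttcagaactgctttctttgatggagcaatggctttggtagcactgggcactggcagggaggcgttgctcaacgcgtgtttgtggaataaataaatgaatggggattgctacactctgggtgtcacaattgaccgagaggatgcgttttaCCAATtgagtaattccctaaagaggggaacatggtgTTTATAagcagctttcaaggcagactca
The Tat window holds CCAAT once on the gene's strand and the reverse complement at 2 places, and the Hal window holds CCAAT once and, 28 to 23 bases before the start, the reverse complement of TATAAA.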

How the data were processed

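The authors deposited a table of one count per gene and library: reads were aligned with STAR 2.7.1a to GRCm39 and counted over exons with Subread featureCounts 2.0.6 as reverse-stranded, the reads of a pair singly, leaving out reads that map to several places or overlap several genes. All 16 libraries were fitted together as 4 groups with edgeR 4.0.16 in R 4.3.3: filterByExpr with a minimum count of 10, TMM normalization, the quasi-likelihood F test, and Benjamini-Hochberg adjustment over all 16742 genes tested. A gene is called at an adjusted p under 0.05, and an adjusted p comes from this fit unless it is given for DESeq2, without a library, for a block or as a range over alternatives or left-out libraries, or follows the name of another setting. Contrasts were LKO against CRE- in males and in females, their difference, their average, and the controls of one sex against the other.

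Alternatives were DESeq2 1.42.0, RLE and upper-quartile normalization, no filter, 10 counts in every library, each sex fitted alone, the replicate number of the titles or of the library names as a block, voom of limma 3.58.1 with sample quality weights, an adjusted p of 0.1, and leaving out each library. Genes are named by a rule: the 9 enzymes, Gcgr, paralogs, up to 15 called genes of the wider list per comparison and up to 12 called regulators or targets. The 9 genes and all lists were chosen with earlier results of these data known. Likeness is Pearson's r on log2 CPM with a prior count of 2. The steps were tried on simulated data first.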

Additional observations from a re-analysis of the deposited data

Results flagged for a closer look

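In 4 of the 40 groups examined (the 9 enzymes and Gcgr in 4 groups each), 1 mouse lay far from the other 3, its gap to the nearest being most of the group's range; chance marks about 1 in 20 groups in this way. Gls2 was 191 CPM in male LKO mouse 3, above its group (gap 0.876 of the range). Gls2 was 411 CPM in female LKO mouse 2, above its group (0.875). Hpd was 706 CPM in male LKO mouse 1, below its group (0.843). Gcgr was 127 CPM in male CRE- mouse 3, below its group (0.949).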

How the results depend on the processing

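Of the results recomputed under the alternatives, 987 values kept their direction and their side of the threshold, 58 newly passed it, 12 no longer passed it and 23 changed direction. Members called in males were 1 (Sds) by DESeq2, with each sex fitted alone and by limma-voom, and 0 without any 1 library. Members called in females were 2 by DESeq2, 2 with the replicate block, 6 by limma-voom, 1 at an adjusted p of 0.1, and 0 to 3 without 1 library. For the averaged effect they were 5 by DESeq2, 2 with no filter, 3 with the replicate block, 6 by limma-voom, 3 at an adjusted p of 0.1, and 0 to 3 without 1 library. With no filter 472 of 26379 genes were called in the averaged effect, while counts over all genes at an adjusted p of 0.1 are not given. The difference and the comparison of controls had 0 members throughout.

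Of the wider list, males had 1 called gene by DESeq2 (339 of all 16684 genes) and 1 with each sex fitted alone (107 of 15595). Females had 23 by DESeq2 (1816 of all 16359 genes), 2 with each sex fitted alone (119 of 15744) and 24 by limma-voom (1976 of 16742). They had 23 at an adjusted p of 0.1, where the count over all genes is not given. Without 1 library they had 3 to 22, with 87 to 1310 of all genes called. The averaged effect had 19 by DESeq2 (1034 of 16684). The 3 alternatives that follow were chosen after seeing the data. Without both libraries of lowest weight (female LKO mouse 1 at 0.216 and male CRE- mouse 3 at 0.296), 2 members were called in the averaged effect and 6 genes of the wider list in females. Over all 16945 genes 491 were called in that averaged effect and 361 in females. Without the 4 libraries with pancreatic or muscle transcripts (over 50 CPM), the wider list had 0 in females and 2 in the averaged effect. With the number of the library name as a block, 3 members were called in females, 3 in the averaged effect and 22 genes of the wider list in females.

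Direction turned for the Tat difference by limma-voom (-0.0818), for Got1 in females with the replicate block (-0.0070), for the Tat difference (-0.45) and Got1 in females (-0.0326) with the library number block, and, without both libraries of lowest weight, for Tdo2 in males (-0.0398), the Prodh difference (0.38), Prodh between controls (-0.13) and Gcgr between controls (-0.0436). Without 1 library the ranges that crossed 0 were: difference, Gls2 -0.76 to 0.62, Tat -0.14 to 0.70, Prodh -0.46 to 0.18; males, Tdo2 -0.0453 to 0.28; females, Got1 -0.41 to 0.34; controls, Tdo2 -0.36 to 0.0477, Got1 -0.0017 to 0.26, Prodh -0.13 to 0.36, Gcgr -0.0414 to 0.17. The cause was not tested.

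The replicate block assumes that equal numbers pair mice across groups. Over the 24 pairs of equal number r ran from -0.25 to 0.33, with 11 above 0.1, and over the 72 pairs of different number from -0.29 to 0.34, with 12 above 0.1. The numbers of the library names differ from them in 3 of 16 libraries. Whether either set pairs mice is unsure. Calls over all genes in males, females and the average were 76, 710.0 and 478 by edgeR, 339, 1816 and 1034 by DESeq2, 148, 1976 and 857 by limma-voom, 63, 1244 and 629 with the replicate block, and 60, 1074 and 653 with the library number block; each sex fitted alone gave 107 and 119 in males and females. For the difference and the controls they were 0 and 154 by edgeR, 371 and 509 by DESeq2, 29 and 329 by limma-voom, 12 and 170.0 with no filter, and 0 and 78 with 10 counts in every library. The lowest value of these 9 genes was 31.9 CPM, and the part of depth in the results was not tested.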
